A study of Mus musculus with 8 samples.

Results

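The transcripts described here encode 10 sensors of RNA and DNA in the cytosol or endosome and their adaptors, out of 24421 genes with a row for each library. The genes are Ddx58, Ifih1, Dhx58, Mavs, Trim25, Eif2ak2, Tlr3, Zbp1, Mb21d1 (cGAS) and Tmem173 (STING), found by symbol. They were chosen by function with earlier results of these libraries known, so their differences and the calls of the fit are given as a description, and nothing is read from a call. RNA came from primary osteoblastic cells released by enzymes from the calvaria, the flat bones of the skull, of newborn mice of the C57BL/6 strain. WT cells and cells of Def6-/- mice, which lack the guanine nucleotide exchange factor Def6 in every cell and not only in bone, were sampled at day 0 and at day 12 of culture in a medium with ascorbic acid and β-glycerophosphate that drives osteoblast differentiation, with 2 libraries in each of the 4 groups. According to the methods, the WT mice were littermates, the line had been crossed repeatedly to C57BL/6, and cells had been expanded in medium free of ascorbic acid before day 0. No depletion of CD45-positive cells is described for these libraries. The methods call the libraries of a group biological replicates, and the labels do not tie them to mice or cultures, so the p-values measure the spread between these libraries.

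Rig-I (Ddx58) and Mda5 (Ifih1) are helicases that bind double-stranded RNA in the cytosol and pass the signal to Mavs, an adaptor on the outer membrane of mitochondria. Lgp2 (Dhx58) belongs to the same family but lacks the signalling domains, and Trim25 is a ubiquitin ligase that acts on Rig-I. Pkr (Eif2ak2) is a kinase that binds double-stranded RNA and phosphorylates the translation factor eIF2alpha, Tlr3 detects double-stranded RNA in endosomes, and Zbp1 binds nucleic acids in the Z conformation and recruits the kinases of necroptosis. cGAS makes a cyclic dinucleotide when it meets DNA in the cytosol, and STING is the receptor of that messenger. The routes through Mavs, Tlr3 and STING converge on the kinase Tbk1 and the transcription factors Irf3 and Irf7, which drive the type I interferon genes. Several of the sensors are themselves induced by interferon.

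Promoter stretches are shown for the genes of this set that rose over the culture and held a shared run of letters near their start. RefSeq windows of GRCm38.p6, from 250 bases before to 50 bases after the start of each gene, matched 7 of the 10 genes. Dhx58, Zbp1 and Tmem173 were not matched. The letters GAAANNGAAA, the core repeat of the interferon-stimulated response element, were searched on both strands, with overlapping matches allowed. They stood in 3 of the 7 windows (Ddx58, Ifih1 and Eif2ak2) and in none of those of Mavs, Trim25, Tlr3 and Mb21d1. Of all 32851 windows of the same length, 3.44% held the letters. The Eif2ak2 stretch runs from 250 bases before the start to base 28 of the transcript (chr17:78882545-78882822, minus strand). The Ddx58 stretch ends at base 12 of the transcript (chr4:40239814-40240075, minus strand), and the Ifih1 stretch is the last 30 bases of its window (chr2:62646206-62646235, minus strand). All are written 5′ to 3′ along the gene with the matching letters in capitals, and in Ddx58 the match is on the other strand.
Eif2ak2: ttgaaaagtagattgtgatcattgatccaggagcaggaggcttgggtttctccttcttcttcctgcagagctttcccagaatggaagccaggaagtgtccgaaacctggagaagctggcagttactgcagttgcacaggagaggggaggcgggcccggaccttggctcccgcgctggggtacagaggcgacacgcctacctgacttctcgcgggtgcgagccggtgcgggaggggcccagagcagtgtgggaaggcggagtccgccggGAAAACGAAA
Ddx58: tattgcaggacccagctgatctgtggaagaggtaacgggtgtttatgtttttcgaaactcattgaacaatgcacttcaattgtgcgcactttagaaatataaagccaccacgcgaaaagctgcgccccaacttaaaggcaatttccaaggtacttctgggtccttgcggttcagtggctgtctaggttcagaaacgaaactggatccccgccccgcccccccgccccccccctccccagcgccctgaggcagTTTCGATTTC
Ifih1: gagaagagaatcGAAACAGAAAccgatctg
The match covered bases 19 to 28 after the start in Eif2ak2, 3 to 12 in Ddx58 and 33 to 42 in Ifih1. A match of letters is a description of the window and not a measured binding site, and its absence says only that these letters are not in the window.

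Values are normalized CPM, which are counts scaled to the reads on genes of the library with TMM factors (2414856 to 3482837 reads on genes per library). A log2 difference was taken on log2(normalized CPM + 1), where the 1 added makes changes of weakly expressed genes look smaller, and carries the standard error (SE) of the limma fit over all 8 libraries. Each library matched the genotype in its label: Def6 had between 112 and 186 reads in the 4 WT libraries and between 0 and 2 in the 4 Def6-/- libraries. All 10 osteoblast markers were above the filter, with a summed level of 29356 to 117419 normalized CPM over the 8 libraries. The 8 lymphocyte markers had 0 reads in every library. Macrophage markers were present and increased over the culture. Their summed level, without Ptprc (CD45), whose values were not whole reads, was 442 and 278 normalized CPM in WT replicates 1 and 2 at day 0, and 6614 and 3332 at day 12. In Def6-/- cells the sums were 205 and 331 at day 0 and 4082 and 3598 at day 12. In bulk RNA, fewer cells of a type and less RNA per cell cannot be told apart.

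Ddx58, the Rig-I gene, lies on chromosome 4 (mm10, 40203773 to 40239828, minus strand) and had 80 and 167 reads in the WT libraries at day 0. In WT cells Ddx58 had 31.6 and 59.0 normalized CPM at day 0 (replicates 1 and 2, in this order throughout) and 84.7 and 98.0 at day 12. In Def6-/- cells the Ddx58 values were 35.0 and 48.4 at day 0 and 64.1 and 69.6 at day 12. Both genotypes were higher at day 12 with no overlap between days, and the WT libraries at day 12 stood above the other 6.

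Ifih1, which encodes Mda5 (chromosome 2, 62595798 to 62646255, minus strand), was below Ddx58 per kb of exon in every group. Its values were 4.74 and 13.1 normalized CPM at day 0 and 31.0 and 40.2 at day 12 in WT cells. Its Def6-/- values were 5.64 and 14.6 at day 0, then 27.5 and 23.5 at day 12. Replicate 2 was more than double replicate 1 at day 0 in both genotypes, a gap of 1.29 and 1.24 on the log2 scale.

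Dhx58, the Lgp2 gene (chromosome 11, 100694884 to 100704271, minus strand), started low and moved most in relative terms of the 3 helicases. WT cells had 5.13 and 4.24 normalized CPM at day 0, then 25.8 and 38.1 at day 12. Def6-/- cells had 1.505 and 3.746 at day 0, from 4 and 11 reads, and 19.3 and 14.1 at day 12. The Def6-/- libraries were below both WT libraries on each day. An antisense gene, Dhx58os, overlaps exons of Dhx58, and since the strand setting of the counting is not given in the sources used here, reads of the pair cannot be told apart.

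The balance among the 3 helicases can be read within a library, where no scaling between libraries enters. Per 100 reads of Ddx58, WT cells had 16.2 and 7.19 reads of Dhx58 at day 0 and 30.5 and 38.9 at day 12. Def6-/- cells had 4.30 and 7.75 at day 0, then 30.1 and 20.2 at day 12. Lgp2 transcripts thus took a larger share relative to Rig-I transcripts at day 12 in both genotypes, without overlap between days. Ifih1 had 15.0 and 22.2 reads per 100 reads of Ddx58 in WT cells at day 0 and 36.6 and 41.0 at day 12, and 16.1, 30.3, 42.9 and 33.7 in the Def6-/- libraries in the same order. Eif2ak2 stayed close to Ddx58, at 68.8 to 90.6 reads per 100 reads of Ddx58 over the 8 libraries.

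**Figure D1:**
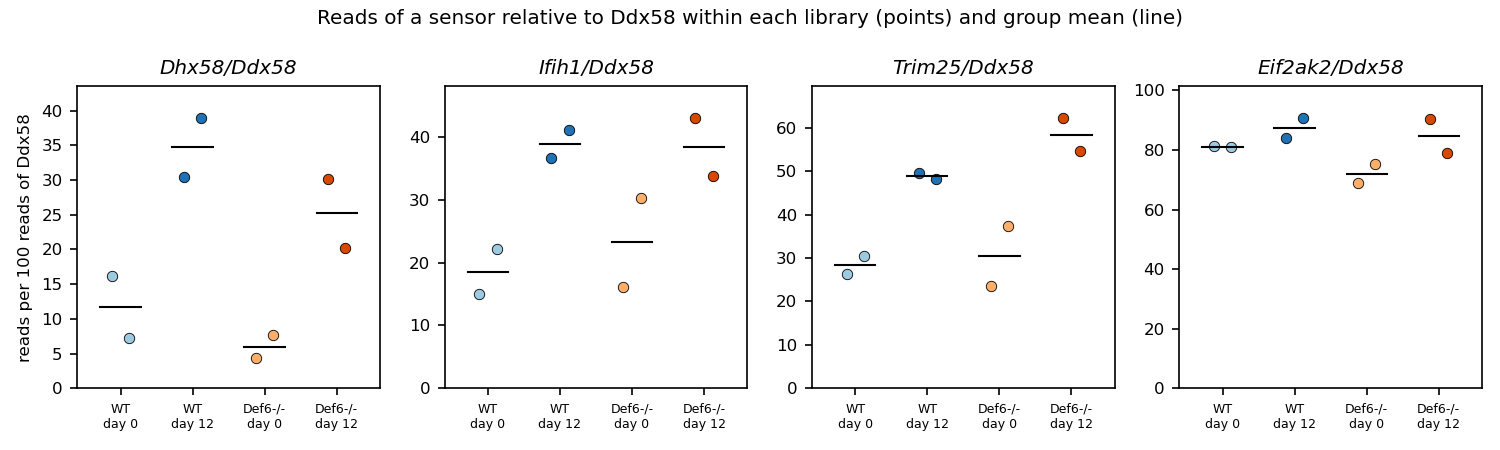
Reads of Dhx58, Ifih1, Trim25 and Eif2ak2 per 100 reads of Ddx58 in the same library (vertical axes, from 0), by group, with a point for each library and a line at the group mean. Dhx58 lay between 4.30 and 16.2 at day 0 and between 20.2 and 38.9 at day 12, whereas Eif2ak2 lay between 68.8 and 90.6 in all libraries.

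Trim25, the ligase that modifies Rig-I (chromosome 11, 88999376 to 89020293, plus strand), had nearly the same values in both genotypes at day 0. WT cells had 8.29 and 18.0 normalized CPM at day 0, then 41.9 and 47.3 at day 12. Def6-/- cells had 8.28 and 18.1 at day 0, then 39.8 and 38.0 at day 12. Days did not overlap in either genotype.

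Mavs, the adaptor that both helicases need (chromosome 2, 131234063 to 131248025, plus strand), hardly varied. Its values lay between 32.5 and 39.8 at day 0 and between 34.4 and 40.1 at day 12, with genotypes pooled in these ranges. WT cells had 33.2 and 32.5 normalized CPM at day 0, then 34.4 and 38.9 at day 12, and Def6-/- cells had 33.5, 39.8, 37.4 and 40.1 in the same order.

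Eif2ak2, the gene of Pkr (chromosome 17, 78852564 to 78882573, minus strand), varied in step with Ddx58. WT cells had 25.7 and 47.7 normalized CPM at day 0, then 71.2 and 88.8 at day 12. In Def6-/- cells the values were 24.1 and 36.4 at day 0 and 57.9 and 55.1 at day 12. At day 12 the Def6-/- libraries lay below both WT libraries, and at day 0 the genotypes overlapped.

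Tlr3, the endosomal receptor of double-stranded RNA (chromosome 8, 45395665 to 45411080, minus strand), rested on few reads at day 0, with 7 and 18 in WT cells and 7 and 19 in Def6-/- cells. Its WT values were 2.76 and 6.36 normalized CPM at day 0 and 14.6 and 22.2 at day 12. The Def6-/- values were 2.63 and 6.47 at day 0 and 12.3 and 16.2 at day 12. Genotypes overlapped on both days and days overlapped in neither genotype.

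Zbp1, the sensor of Z-form nucleic acids (chromosome 2, 173206612 to 173218923, minus strand), had 2 reads in each of the 4 libraries at day 0. At day 12 it had 25 and 23 reads in WT cells and 6 in each Def6-/- library, or 7.18 and 9.63 against 2.46 and 2.56 normalized CPM. Summed over the group and scaled to reads on genes, WT cells at day 12 had 10.5 times the level of WT cells at day 0, with an exact counting interval of 3.85 to 40.1 (95%). In Def6-/- cells the ratio of day 12 to day 0 was 3.25 with an interval of 0.984 to 13.8. At day 12 the Def6-/- level was 0.304 of the WT level, with an interval of 0.147 to 0.581. These intervals come from reads summed over the libraries of a group, cover counting error only and leave out the spread between libraries. They are not a test, and nothing is read from whether an interval holds no change. Zbp1 passed the filter on low values only through WT cells at day 12, the group where it was high, and its fitted differences depend on the number added before the logarithm. It therefore had to differ from the other groups there, and it is left out of the counts of called genes and the medians below.

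The genes of the DNA branch had no such pattern. Mb21d1, which encodes cGAS (chromosome 9, 78430526 to 78443237, minus strand), had between 11 and 21 reads in every library. The WT libraries had 4.34 and 5.65 normalized CPM at day 0, then 4.59 and 8.79 at day 12, and the Def6-/- libraries 7.15 and 5.79, then 4.52 and 6.40. Tmem173, the STING gene (chromosome 18, 35733679 to 35740554, minus strand), had 11.8 and 8.48 normalized CPM in WT cells at day 0 and 11.8 and 13.4 at day 12. Def6-/- cells had 15.0 and 14.6 at day 0, then 13.1 and 15.4 at day 12. For both genes days overlapped in each genotype.

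**Figure D2:**
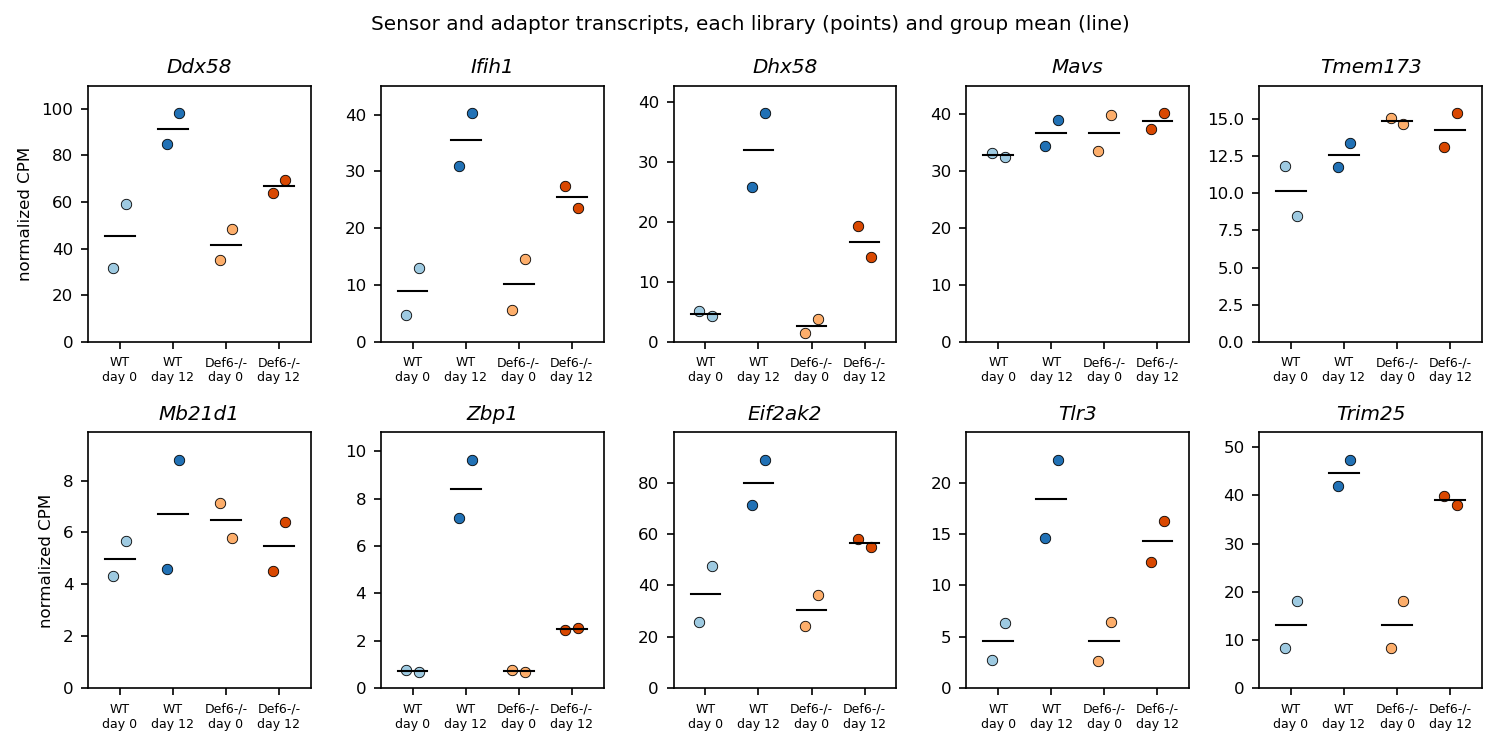
Normalized CPM (vertical axes, from 0) of the 10 sensors and adaptors in WT and Def6-/- cells at day 0 and day 12, with a point for each library and a line at the group mean. Ddx58 reached 84.7 and 98.0 in WT cells at day 12 against 64.1 and 69.6 in Def6-/- cells, while Mavs stayed between 32.5 and 40.1 in all libraries.

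Per kb of exon (GENCODE vM21, union of all exons), the order of the levels changed over the culture. At day 0 Mavs led in both genotypes, with 9.81 ± 0.136 normalized CPM per kb in WT cells and 10.96 ± 1.35 in Def6-/- cells (SD, n = 2). Eif2ak2 and Ddx58 followed, at 7.17 ± 3.05 and 6.42 ± 2.75 in WT cells. At day 12 in WT cells Eif2ak2 led with 15.6 ± 2.43 per kb, followed by Ddx58 (13.0 ± 1.34), Mavs (10.97 ± 0.952) and Dhx58 (9.77 ± 2.65). In Def6-/- cells at day 12 Mavs (11.6 ± 0.585) and Eif2ak2 (11.05 ± 0.390) overlapped at the top, and Ddx58 was at 9.48 ± 0.555. Zbp1 was last in 3 groups, and in WT cells at day 12 it overlapped Mb21d1, which was last there (1.62 ± 0.720). Of the 9 pairs of neighbours in the order, 6 overlapped in WT cells at day 0, 5 in WT cells at day 12, 6 in Def6-/- cells at day 0 and 3 in Def6-/- cells at day 12. Exons of Mb21d1, Eif2ak2 and Tlr3 also overlap genes on the opposite strand.

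Over 12 days of culture, 6 of the 9 genes other than Zbp1 were higher in WT cells at an adjusted p under 0.05 (limma with Benjamini-Hochberg adjustment over 12348 genes), and none had a negative difference. All 10 passed the filter on low values, 9 of them in more than 1 group. Over all genes tested, 12.7% were called higher and 5.63% lower, and since the genes were chosen with this contrast known, nothing is read from the difference. The called genes were Dhx58 (log2 difference 2.51, SE 0.38), Ifih1 (2.01, SE 0.49), Tlr3 (1.86, SE 0.46), Trim25 (1.78, SE 0.41), Eif2ak2 (1.16, SE 0.32) and Ddx58 (1.06, SE 0.30). Mavs (0.15, SE 0.20), Tmem173 (0.30, SE 0.27) and Mb21d1 (0.31, SE 0.37) were not called. The fitted value of Zbp1 was 2.42 (SE 0.34). The median of the 9 differences was 1.16, and that of all genes tested was -0.001. Libraries of the days did not overlap for 7 of the 9 genes, all higher at day 12, against 29.3% of all genes tested. The count fell to 1 (Dhx58) without either WT library of day 12, and to 2 (with Trim25) when only the 4 WT libraries were fitted.

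In Def6-/- cells 2 of the 9 genes were called higher at day 12, Dhx58 (2.34, SE 0.38) and Trim25 (1.59, SE 0.41), against 12% of all genes tested. None was called lower, against 4.79%. The differences of Tlr3 (1.54, SE 0.46), Ifih1 (1.37, SE 0.49), Eif2ak2 (0.91, SE 0.32) and Ddx58 (0.69, SE 0.30) were positive and not called. Mavs (0.08, SE 0.20), Tmem173 (-0.06, SE 0.27) and Mb21d1 (-0.22, SE 0.37) lay near 0 relative to their SE. The fitted value of Zbp1 was 1.03 (SE 0.34). The median of the 9 was 0.91, and that of all genes was 0.01. Days did not overlap for 6 of the 9 genes, all higher at day 12, against 35.2% of all genes. The count was 6 without either WT library of day 0 and 1 (Dhx58) without either library of WT or Def6-/- day 12 or without Def6-/- day 0 replicate 1, and it was 6 when only the 4 Def6-/- libraries were fitted.

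**Figure D3:**
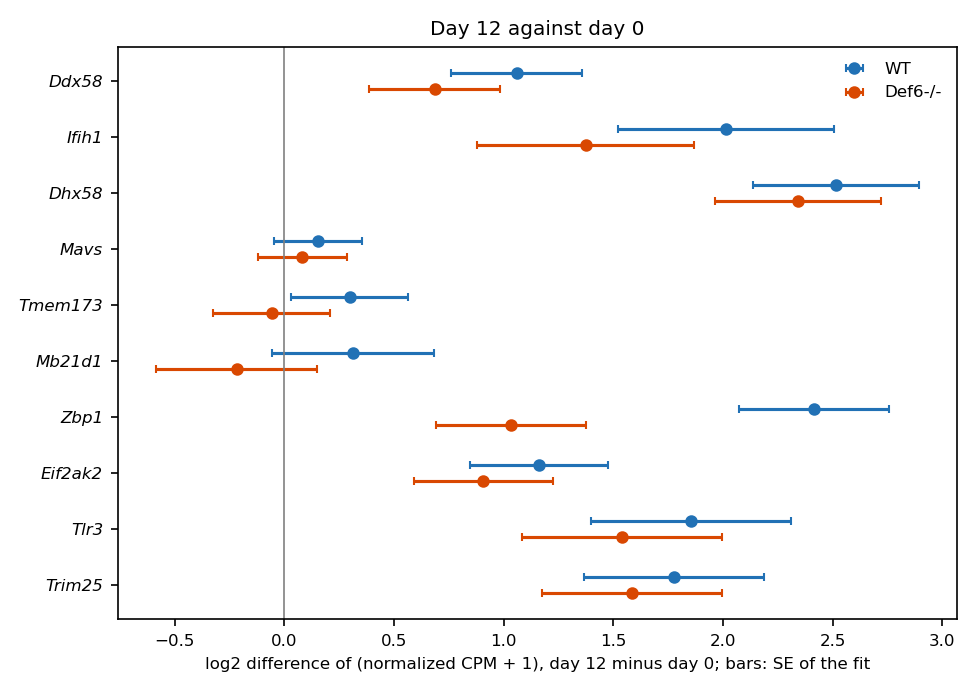
Log2 difference of (normalized CPM + 1), day 12 minus day 0 (horizontal axis), for each of the 10 genes in WT and Def6-/- cells, with bars for the SE of the fit. The WT point is to the right of the Def6-/- point for each of the 10 genes. Over all 12348 genes tested, the difference was larger in Def6-/- cells for 6435. The 10 genes were chosen with results known and share the same libraries, so nothing is read from the count. The bars overlap for every gene but Zbp1 (2.42 against 1.03), which passed the filter only through WT cells at day 12.

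Macrophage markers moved with the day in the same direction. In WT cells 17 of the 20 markers were called higher at day 12 (median 3.22), and 16 of 20 in Def6-/- cells (median 3.08). Ptprc, whose values were not whole reads, is among the 20 and was not called. Of all genes tested, 12.7% were called higher in WT cells and 12% in Def6-/- cells. The part of these cells in the rise of the sensors was not tested. The WT libraries of day 12 had 6614 and 3332 normalized CPM of macrophage markers, and 327 and 405 for the sum of the 10 sensors. The order of 2 libraries cannot relate these sums, and nothing is read from it.

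**Figure D4:**
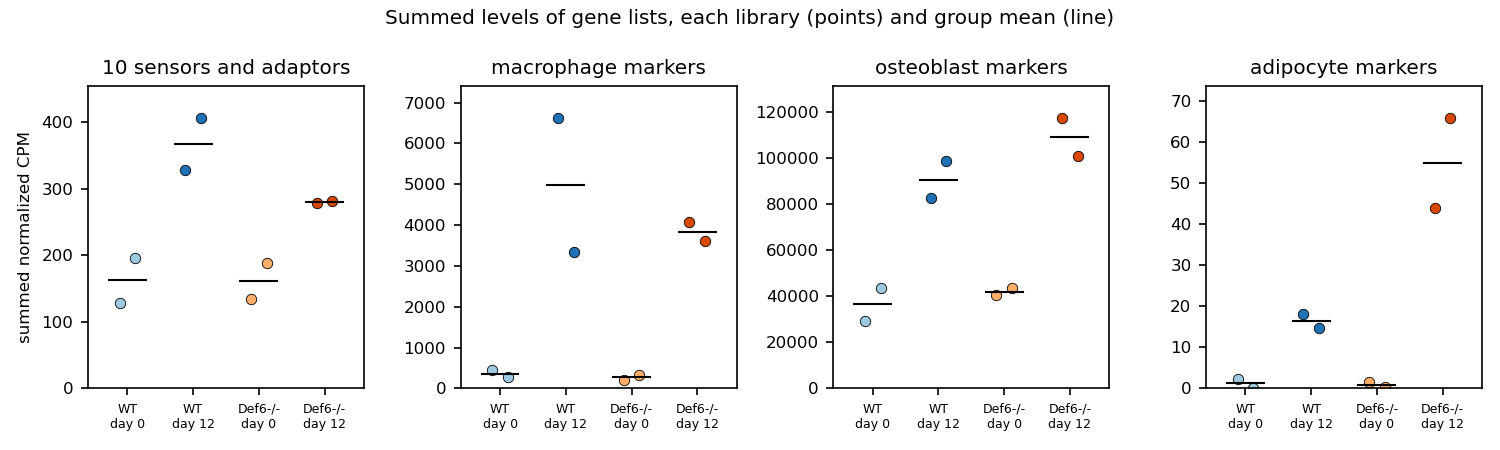
Summed normalized CPM (vertical axes, from 0) of the 10 sensors and adaptors, of 19 macrophage markers, of 10 osteoblast markers and of 6 adipocyte markers, with a point for each library and a line at the group mean. At day 12 the sensor sums were 327 and 405 in WT and 278 and 281 in Def6-/- cells. The macrophage sums were 6614 and 3332 in WT and 4082 and 3598 in Def6-/- cells.

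At day 12, 7 of the 9 genes other than Zbp1 had a negative difference between Def6-/- and WT cells, and 1 was called lower by the rule of the study's methods, a fold change beyond 1.2 with an unadjusted p under 0.05. This was Dhx58 (log2 difference -0.89, SE 0.38), and none was called higher. For Zbp1, which had 6 reads in each Def6-/- library against 25 and 23, the fitted value was -1.41 (SE 0.34). By this rule 0.591% of all genes tested were lower and 0.810% higher, and nothing is read from the count because the genes were chosen with this contrast known. None of the 10 had an adjusted p under 0.05 in limma, in the quasi-likelihood test of edgeR or in DESeq2, and over all genes only Def6 did in limma (0.00810% of genes tested). The other differences were -0.49 for Eif2ak2 (SE 0.32), -0.46 for Ifih1 (SE 0.49), -0.44 for Ddx58 (SE 0.30), -0.33 for Tlr3 (SE 0.46), -0.21 for Mb21d1 (SE 0.37), -0.19 for Trim25 (SE 0.41), 0.08 for Mavs (SE 0.20) and 0.17 for Tmem173 (SE 0.27). The median of the 9 was -0.33, against -0.0006 over all genes tested. For 5 of the 9 genes (Ddx58, Ifih1, Dhx58, Eif2ak2 and Trim25) neither Def6-/- library reached the lower WT library, as in 15.9% of all genes tested. The count of called genes was 3 without either WT library of day 0 (with Ddx58 and Eif2ak2), 0 without WT day 12 replicate 2 or without either Def6-/- library of day 12, and 4 (with Ifih1) when only the 4 libraries of day 12 were fitted. It was also 0 with no filter on low values and with a pseudocount of 0.1.

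Marker lists were read in the same contrast. All 20 macrophage markers had a negative difference (Def6-/- minus WT, median -0.35), Ptprc among them, whose values were not whole reads. By mean normalized CPM, 18 of the 19 others were lower in Def6-/- cells. Of all 12348 genes tested, 6158 had a positive difference. No macrophage marker was called, and 4 were lower without overlap, against 15.9% of all genes tested. The 10 osteoblast markers all had a positive difference (median 0.42) and 2 were called higher by the unadjusted rule (Bglap and Dlx5). Of the adipocyte markers tested, Plin1 (1.73, SE 0.38) and Fabp4 (1.28, SE 0.54) were called higher. Adipoq and Cfd were called too, but passed the filter only through Def6-/- cells at day 12, the group where they were high. They had to be higher there, and nothing is read from their calls. By the unadjusted rule 0.810% of all genes tested were called higher. The summed macrophage level overlapped between genotypes, at 3332 and 6614 in WT cells and 3598 and 4082 in Def6-/- cells. Their part in the sensor differences was not tested.

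At day 0 none of the genes was called in either direction (limma, n = 2 libraries per genotype), while 0.988% of all genes were called higher and 1.31% lower in Def6-/- cells. None was called by edgeR or DESeq2 either, and none of the 10 had an unadjusted p under 0.05 in limma. Zbp1 had 2 reads in each library and no ratio is given. Of the other 9 genes, 5 had a positive and 4 a negative difference, with a median of 0.0004. Mavs (0.15, SE 0.20), Tmem173 (0.52, SE 0.27) and Mb21d1 (0.32, SE 0.37) were higher in Def6-/- cells without overlap of the libraries, against 10.9% of all genes. Dhx58 (-0.72, SE 0.38) was lower without overlap, against 11.7%. Without WT day 0 replicate 1, Ddx58, Tmem173 and Eif2ak2 were called (3 genes), and without Def6-/- day 0 replicate 2 Dhx58 was called (1 gene).

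**Figure D5:**
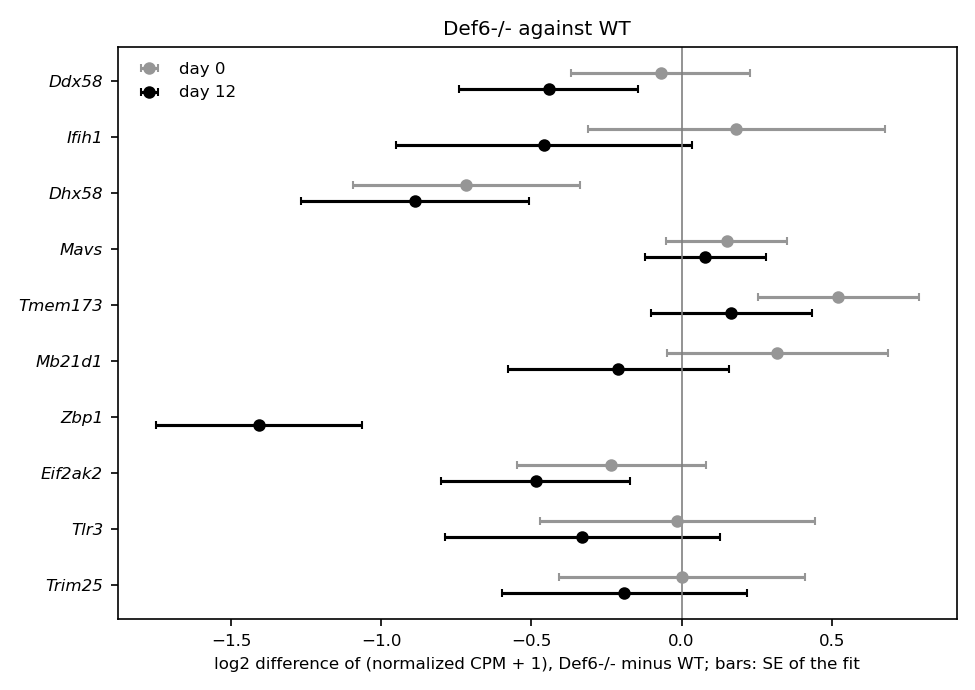
Log2 difference of (normalized CPM + 1), Def6-/- minus WT (horizontal axis), for each of the 10 genes at day 0 and day 12, with bars for the SE of the fit. Zbp1 has no point at day 0, where every library had 2 reads, and at day 12 it lies furthest to the left (-1.41).

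The change of the day difference with genotype was also fitted as an interaction. The terms of the 9 genes other than Zbp1 lay between -0.64 for Ifih1 (SE 0.70) and -0.07 for Mavs (SE 0.29), each close to or under its own SE, with a median of -0.32 against 0.02 over all genes tested. None of the 9 had an unadjusted p under 0.05 in limma, in edgeR or in DESeq2, against 0.421% of all genes tested in the negative direction in limma. For 7 of them (Ddx58, Ifih1, Dhx58, Mavs, Eif2ak2, Tlr3 and Trim25) the sign changed in 1 to 4 of 16 alternatives. The fitted term of Zbp1 was -1.38 (SE 0.48). The day comparisons, the genotype comparisons and the interaction share libraries, so they are not separate evidence. Without WT day 0 replicate 2, 3 of the 9 were called (Ddx58, Ifih1 and Eif2ak2).

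Replicates of day 0 differed for a subset of the sensors in both genotypes. Replicate 2 exceeded replicate 1 by 0.88 and 0.46 on the log2 scale for Ddx58 (WT and Def6-/-), by 0.87 and 0.58 for Eif2ak2, by 0.97 and 1.04 for Tlr3 and by 1.03 and 1.04 for Trim25. Over all genes tested the replicates of day 0 differed by a median of 0.51 among WT libraries and 0.22 among Def6-/- libraries. At day 12 the differences of these 4 genes lay between -0.07 and 0.57. The summed macrophage level at day 0 was 442 and 278 in WT cells and 205 and 331 in Def6-/- cells. Its part in these replicate differences was not tested.

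Over the 8 libraries the 6 genes called higher in WT cells and Zbp1 had a Pearson r from 0.82 (Zbp1 and Trim25) to 0.99 (Ddx58 and Eif2ak2) between pairs. This describes libraries that share the day effect. The genes were picked by their rise in the same libraries, so a high r among them follows from the choice. Nothing is read from it, nor from a lower r of the genes not called. Mavs had r between 0.35 and 0.64 with these genes. Tmem173 had r between -0.12 and 0.11 with these genes, and Mb21d1 between 0.05 and 0.28. Genes outside the list whose profile was most like the mean of the 10 were Arhgap28 (r = 0.98), Add2 (0.98), Foxred2 (0.97), Pcyt1b (0.97) and Ppp1r9b (0.97), over 8 libraries. For Dhx58 they were Bst2 (r = 0.999), Ddx60 (0.99), B3galnt1 (0.99), Psmb9 (0.98) and B2m (0.98). For Zbp1 they were Kctd1 (r = 0.99), Rtp4 (0.97), Gbp3 (0.97), Phf11d (0.97) and Tdrd7 (0.96).

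Over all genes tested, 12.7% were called higher and 5.63% lower in WT cells at day 12. The pathway lists were chosen with earlier results known, and nothing is read from their counts beside these shares. Downstream of the adaptors, 3 of the 16 tested genes of the signal relay were called higher in WT cells at day 12 and none lower, with a median difference of 0.19. They were Irf7, the interferon-induced transcription factor (2.36, SE 0.47), Irf5 (1.51, SE 0.31), another factor of that family, and Tbkbp1, a binding partner of Tbk1 (1.32, SE 0.37). The kinase Tbk1 (0.22, SE 0.20), Irf3 (-0.03, SE 0.21) and Ticam1, the adaptor of Tlr3 (0.30, SE 0.24), were not called. Irf7 had 5.92 and 8.48 normalized CPM in WT cells at day 0 and 29.0 and 56.5 at day 12, and 1.13 and 4.09, then 15.6 and 13.2, in Def6-/- cells. The Irf7 values of Def6-/- cells were below both WT values on each day, and Irf7 was called lower by the unadjusted rule both at day 0 (-1.30, SE 0.47) and at day 12 (-1.43, SE 0.47). Ifnb1 had 2 reads in Def6-/- day 12 replicate 1 and 0 in the other 7 libraries, where 0 reads allow up to 3 reads, or 0.861 to 1.28 normalized CPM.

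Among cofactors of RNA sensing the median difference was 0.06 in WT cells at day 12. Against 12.7% of all genes tested called higher and 5.63% called lower, 4 of 19 tested cofactors were called higher and 1 lower. Those called higher included Lgals3bp (2.08, SE 0.31) and Nlrc5 (1.65, SE 0.40). Tomm70a, a receptor on the outer mitochondrial membrane, fell by 0.79 (SE 0.22). Adar, which edits adenosines in double-stranded RNA, had 35.1 and 61.8 normalized CPM in WT cells at day 0 and 68.0 and 87.9 at day 12 and was not called (0.72, SE 0.27). Its Def6-/- values were 57.2 and 60.6 at day 0 and 56.7 and 61.9 at day 12. Nlrc5 was called lower in Def6-/- cells at day 12 (-0.96, SE 0.40) by the unadjusted rule, the only gene of this list. By that rule 0.591% of all genes tested were lower.

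Of 17 tested genes that handle DNA and cyclic dinucleotides, 1 was called higher in WT cells at day 12, Dnase2a, a lysosomal DNase (1.45, SE 0.34), and 1 lower, Rnaseh2a, a subunit of RNase H2 (-1.07, SE 0.25), with a median of -0.16. Of all genes tested, 12.7% were called higher and 5.63% lower. The exonuclease Trex1 (0.64, SE 0.27) and Enpp1, which hydrolyses the messenger of cGAS (0.65, SE 0.56), were not called. None of this list was called between genotypes at day 12 (limma), and none had an unadjusted p under 0.05 in that contrast.

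Among endosomal receptors of nucleic acids the median difference was 2.91 in WT cells at day 12. None of the 5 tested genes was called lower (5.63% of all genes tested) and 3 were called higher (12.7% of all genes tested). They were Tlr8 (3.02, SE 0.49), Unc93b1, the chaperone of these receptors (3.01, SE 0.28), and Tlr7, a receptor of single-stranded RNA (2.91, SE 0.35). The same 3 genes were called in Def6-/- cells, with 2.58, 2.57 and 2.91, against 12% of all genes tested called higher. Tlr8, which is in these counts and the median, passed the filter on low values only through the groups of day 12, where it was high. It had 2 and 1 reads in WT cells at day 0 and 0 and 4 in Def6-/- cells. It therefore had to be higher at day 12, and nothing is read from its calls. Tlr7 had 44.8 and 22.6 normalized CPM in the WT libraries of day 12, where Tlr3 had 14.6 and 22.2.

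In the arm of Pkr and eIF2alpha, 4 of 10 genes were called lower in WT cells at day 12 and 1 higher, with a median of -0.37. The shares over all genes tested were 5.63% lower and 12.7% higher. Ddit3, a transcription factor of the integrated stress response, fell by 1.91 (SE 0.32), the phosphatase subunit Ppp1r15a by 1.37 (SE 0.35), and Eif2s1, which encodes eIF2alpha itself, by 0.79 (SE 0.20). Eif2ak3, the kinase Perk, rose by 0.77 (SE 0.18). Among 5 partners of Zbp1 in cell death, Mlkl, the executor of necroptosis, was called higher in WT cells (1.09, SE 0.30) and in Def6-/- cells (1.39, SE 0.30). No gene of these 2 lists was called between genotypes at day 12 (limma), and none had an unadjusted p under 0.05 there.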

How the data were processed

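Poly-A RNA of 8 libraries was measured by RNA-seq. Per the labels, the submitters' processing notes name fastp, HISAT2, HTSeq and edgeR and the genome build mm10, and give no versions. The authors deposited CPM values, 1 table per library, relative to all reads that HTSeq handled, including 5 rows that name no gene and stayed out of library sizes and tests. Reads on genes were 28.8% to 35.3% of all reads. In the deposited CPM, 99.968% of 114821 positive values were whole multiples of 1 read within 0.1 read. The 37 exceptions lie in 9 genes, none of them a sensor described here. They are Acp5, Adgre1, Cd14, Csf1r, Ctsk, Fcgr3, Itgam, Itgb3 and Ptprc, all markers of macrophages or osteoclasts. The annotation and the strand setting of the counting are not given in the sources used here.

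From these files CPM was rescaled to reads on genes with TMM factors, and a gene was tested where its deposited CPM averaged 1 or more in any group (12348 of 24421). limma 3.58.1 in R 4.3.3 (lmFit, eBayes with a trend) was run on log2(normalized CPM + 1), pseudocount 1, in a fit of 4 group means over all 8 libraries, two-sided, with Benjamini-Hochberg adjustment. Day comparisons used an adjusted p under 0.05, genotype comparisons an unadjusted p under 0.05 and over 1.2-fold, and the interaction an unadjusted p under 0.05. The recovered reads were also tested with edgeR 4.0.16 (quasi-likelihood) and with DESeq2 1.42.0. Other alternatives were the libraries in the fit, the filter, the pseudocount (0.1), the scaling, the replicate number as a block and leaving out each library. The fit was tested on simulated data. Exon lengths and positions came from GENCODE vM21 (GRCm38, the build of mm10) and promoters from RefSeq, with Mb21d1 matched as Cgas.

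The members and lists were chosen with earlier results of these data known. All 10 members are named. Of each pathway list, the 3 genes with the smallest p among those called in WT cells in each direction are named, with the 2 of smallest unadjusted p under 0.05 for genotype at day 12 in each direction. A gene that this rule names is not reported here. Ifnb1, Irf3, Irf7, Tbk1, Ticam1, Trex1, Enpp1, Adar and Tlr7 are always named, and so are the 5 genes most alike by Pearson r to the mean of the members and to the members called in most comparisons. With 2414856 to 3482837 reads on genes in a library, genes such as Zbp1 rest on few reads. Endothelial, chondrocyte and muscle markers were read as well, and their results stand in the closing section.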

Additional observations from a re-analysis of the deposited data

Results flagged for a closer look

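The interaction of genotype and day had an unadjusted p under 0.05 for Zbp1 alone among the 10 genes, and nothing is read from it. Zbp1 passed the filter on low values only through WT cells at day 12, the group where it was high. The term was -1.38 on the log2 scale (SE 0.48), with an unadjusted p of 0.0195 and an adjusted p of 0.9998 in limma over 12348 genes. Zbp1 had 25 and 23 reads in the WT libraries of day 12, 6 in each Def6-/- library of day 12 and 2 in each library of day 0, and both WT values lay above both Def6-/- values at day 12. In edgeR and DESeq2 the interaction of Zbp1 was -1.65 and -1.68 and was not called. Groups held 2 libraries each, so that single libraries far from their group were not searched for.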

How the results depend on the processing

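Counts of called genes among all 10, Zbp1 included, depended on the spread that a fit assumed. When only the libraries of the groups compared were fitted, the counts were 3 for WT cells over the days, 6 for Def6-/- cells and 5 for genotype at day 12. Without each library in turn there were 2 to 7 calls in WT cells, 1 to 6 in Def6-/- cells, 1 to 4 for genotype at day 12, 0 to 3 at day 0 and 0 to 4 for the interaction. In such a fit the lone library of a group is assumed to vary like the other groups. Genotype at day 12 gave 1 call (Zbp1) with no filter on low values and 1 with pseudocount 0.1. CPM as deposited gave 1 call at day 0 (Tmem173), and the interaction gave 0 calls with pseudocount 0.1, 0 in edgeR and 0 in DESeq2. The cause was not tested. With the replicate number as a block, 5 genes were called in Def6-/- cells, and the block left the other 4 counts as they were. Replicate numbers were not taken as a pairing, since each comparison has 2 of them and the labels name no shared source. Deviations of libraries with the same number correlated over genes at 0.327 (WT and Def6-/- day 0), 0.0881 (WT day 0 and day 12), 0.152 (Def6-/- day 0 and day 12) and 0.0369 (WT and Def6-/- day 12). Over the 10 sensors and adaptors alone the values were 0.65, -0.02, -0.55 and 0.25, in the same order. Over 16 alternatives the differences of Ddx58, Ifih1, Dhx58, Zbp1, Eif2ak2, Tlr3 and Trim25 kept their sign in the day comparisons and at day 12 between genotypes. Mb21d1 changed sign in 1 alternative for WT day and 2 for genotype at day 12, Mavs in 2 for Def6-/- day and 1 for genotype at day 12, and Tmem173 in 1 for Def6-/- day. At day 0 between genotypes 6 of the 10 genes changed sign in 2 to 5 alternatives (Ddx58, Ifih1, Zbp1, Eif2ak2, Tlr3 and Trim25), and in the interaction 7 did in 1 to 4. Zbp1 ranged from 1.55 (CPM as deposited) to 3.48 (DESeq2) for WT day and from -0.98 to -1.74 for genotype at day 12. CPM as deposited moved the median difference of all genes between genotypes at day 0 from -0.02 to 0.10 on the log2 scale. It also moved the share of called genes that were higher in Def6-/- cells from 57.8% to 70.0% at day 12 and from 43.0% to 72.3% at day 0. TMM factors from all genes, an alternative chosen after seeing the data, left all 5 counts as they were. With 2414856 reads on genes or more per library, Zbp1 at day 0 and Ifnb1 lay at or under the limit of 3 reads.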

Other observations

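Tie1 and Emcn, markers of endothelial cells, had 0 reads in all libraries, and the sum of the 8 endothelial markers was 7.77 to 20.5 normalized CPM. Of the 8, only Tek and Egfl7 were tested. Tek had 0 and 6 reads in WT cells at day 0, then 22 and 14 at day 12. It was called higher there (limma, adjusted p 0.0303). In Def6-/- cells Tek had 4 and 9 reads, then 20 and 22, and was not called. Tek passed the filter only through the groups of day 12, so nothing is read from its call. Egfl7 was not called in either genotype. The 6 muscle markers summed to 2.47 to 13.9 normalized CPM, with Myod1 at 0 reads in all libraries. Of the 6, only Acta1 and Des were tested, and neither was called over the days in either genotype. The Acta1 differences were -1.38 in WT and -1.97 in Def6-/- cells (SE 0.69), and those of Des were 1.30 and 0.74 (SE 0.50). Chondrocyte markers were present at 1134 to 3844 normalized CPM in sum, and those called at day 12 moved in both directions. Col2a1, the collagen of cartilage, was called lower in both genotypes (log2 difference -1.50 in WT and -1.86 in Def6-/- cells). Comp was called higher in both (3.94 and 4.12). Acan was called lower in Def6-/- cells (-1.56) and not in WT cells, where the difference was -1.21. Col9a1 was called higher in Def6-/- cells (1.42) and not in WT cells, where it was 1.02. The interaction terms were -0.35 (SE 0.53) for Acan and 0.40 (SE 0.53) for Col9a1, so no difference between genotypes is read from these calls. Of all genes tested, 12.7% were called higher and 5.63% lower in WT cells, and 12% and 4.79% in Def6-/- cells. Sox9 was not called.

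The letters GAAANNGAAA were also searched in the promoters of the pathway lists. They stood in 1 of 16 matched windows of the signal relay (Ifna4), 1 of 16 cofactors of RNA sensing (Tomm70a), 0 of 16 genes for DNA and cyclic dinucleotides, 1 of 5 endosomal receptors (Myd88), 2 of 9 genes of the Pkr arm (Eif2s1 and Ppp1r15a) and 1 of 5 partners of Zbp1 (Ripk1). The genes named here were chosen after their windows were read. Of all 27025 genes with a window, 3.99% held the letters.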
